A study of Mus musculus with 23 samples.

Results

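Mice that received vehicle but no drug are described here at a late and an early time: vehicle arrays at 4 days (4 arrays) and vehicle arrays at 6 h (4 arrays), chosen by their titles, which makes 8 of the 23 arrays of the series. Every array was hybridised with RNA of the hypothalamus of a male db/db mouse, a strain whose leptin receptor cannot signal and which is obese and diabetic. Mice aged 8 weeks were kept on normal chow (2 weeks), and vehicle was DMSO by intraperitoneal injection (25 µl per day). The labels speak of daily injections and give the time since treatment began. The number of injections per animal, the time of day and the day of RNA extraction were not stated, so these cannot be told apart from the time since the first injection. Celastrol arrays at 4 days (4) and 6 h (3), from mice given this plant triterpenoid, are used for a second look at the same times, and vehicle arrays at 1 day (4) complete the time course. Arrays of 1 group are biological replicates by their titles. The p-values of genes rest on the spread between replicates pooled over all 6 groups of the series, not over these 8 arrays alone.

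A dissected hypothalamus contains neurons and glia, and with them the cells of its borders. The ventral surface is covered by the meninges, whose fibroblasts make collagens, retinoic acid and insulin-like growth factor 2, and whose barrier cells carry organic anion and amino acid transporters. Fibroblasts, pericytes and smooth muscle also surround the vessels, tanycytes and ependymal cells line the third ventricle, and the pituitary hangs below on its stalk. In bulk tissue, fewer cells of a type and less RNA per cell cannot be told apart.

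Values are log2 expression of a probe set, a difference of 1 being a doubling, and a difference is the mean at 4 days minus the mean at 6 h. Of 18704 genes tested, 357 were higher at 4 days (1.91% of genes) and 375 were lower (2.00%), 732 in all (3.91%), at a Benjamini-Hochberg adjusted p below 0.05 in limma. Rises of these genes had a median of 0.25 and a range of 0.14 to 1.17, and 19 exceeded 0.5. Falls had a median of -0.26, the largest was -0.75, and 8 were beyond -0.5. The 4 arrays at 4 days lay entirely above the 4 at 6 h for 285 of the 357 risen genes and entirely below for 343 of the 375 fallen ones. Over all genes this was so for 6.60% and 4.93%. The genes were called from these same arrays, so the larger share among them follows from the selection and adds no support. The calls depend on the spread estimated over all 23 arrays: a limma fit to only the 8 arrays called 0 genes, with a smallest adjusted p of 0.0553 and with 2073 higher and 1230 lower at an unadjusted p below 0.05. The 95% confidence interval of a difference reached 0.136 to either side for the median gene. By sign alone, 62.1% of all genes were higher at 4 days and 37.9% were lower. These shares are to be read beside the counts of members in each list.

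**Figure D1:**
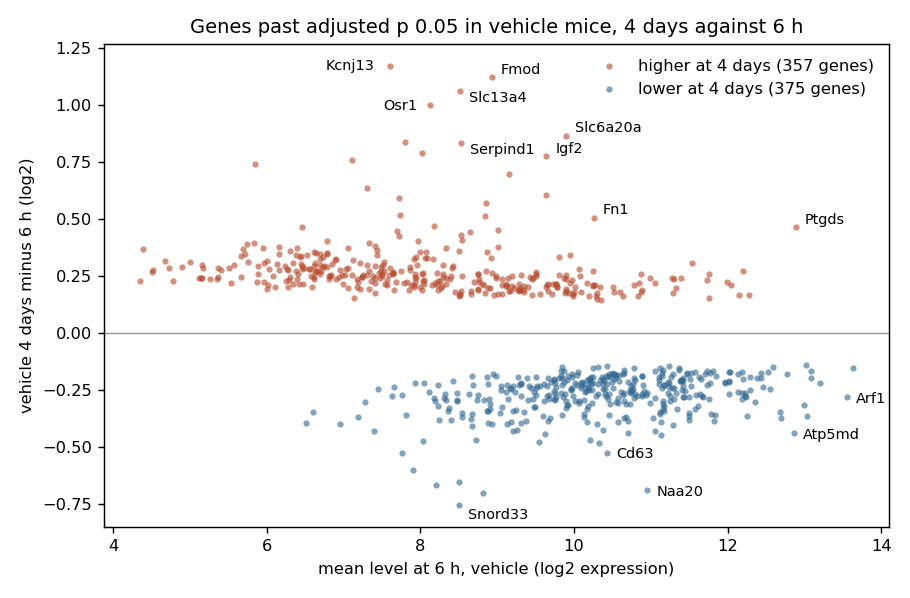
Difference between 4 days and 6 h in vehicle mice (log2, vertical axis) against the mean level at 6 h (log2 expression, horizontal axis) for the 357 risen and 375 fallen genes; each point is a gene. The largest rises are those of Kcnj13 and Fmod, while most falls belong to genes of high level.

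Some arrays stood apart. Replicate 4 at 4 days lay low for the meningeal genes described next, and replicate 4 at 6 h lay high for them. Replicate 3 at 6 h was high for genes of the respiratory chain, the ribosome and the proteasome. The pituitary hormone gene Prl was above 9 in replicate 2 at 4 days (10.37) and in replicates 2 and 4 at 6 h (11.29 and 10.93), and between 6.21 and 7.68 in the other 5. Of 15 pituitary genes, 8 were higher and 7 lower at 4 days, none past the threshold, with list means of 8.15 to 8.99 at 4 days and 7.96 to 9.11 at 6 h. A fit without these 3 arrays and the 1-day array that also had Prl above 9 gave 857 higher and 656 lower genes. It left replicates 1 and 3 at 6 h, and only 230 of the 357 risen and 296 of the 375 fallen genes were still called. With the mean of the pituitary hormones as a covariate all 357 and 375 genes were still called. The SD of the log2 values over genes was smaller at 4 days (1.89 ± 0.00931, against 1.93 ± 0.00970 at 6 h, SD, n = 4 each, exact permutation test, 2-sided, p = 0.0286, the smallest that this design can give). With this SD as a covariate, 3 of the risen and 8 of the fallen genes were still called. The SD is computed from the same values and does not overlap between the groups, so it cannot be told apart from time.

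Markers of meningeal and perivascular fibroblasts were higher together. All 27 genes of this list were higher at 4 days, with a median of 0.45 against 0.04 over all genes. Of the 27, 9 passed the threshold: Fmod, Aldh1a2, Igf2, Slc13a3, Slc22a6, Igfbp2, Fn1, Pcolce and Col6a1. The first 5 of these are among the 15 largest rises of all genes. The list mean was 8.89, 8.98, 8.99 and 8.30 on the 4-day arrays, against 8.11, 8.33, 8.31 and 8.68 on the 6 h arrays. Replicate 4 at 4 days was thus below replicate 4 at 6 h, and 3 of 4 arrays of each group made the difference. Without replicate 4 at 4 days 16 members passed, without replicate 4 at 6 h also 16, and without any one of the other arrays between 1 and 7; the median stayed between 0.34 and 0.56.

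Kcnj13, an inwardly rectifying potassium channel gene of barrier epithelia and a member of the choroid plexus list, had the largest rise of the genes called. It measured 8.94, 9.38, 9.18 and 7.62 at 4 days, against 7.11, 7.22, 7.62 and 8.48 at 6 h. The groups overlapped through the 2 replicates numbered 4, and the difference of 1.17 (SE 0.28) is a 2.25-fold rise with an adjusted p of 0.0268. This SE and p, like those of the other genes named, rest on the spread pooled over all groups of the series. They do not measure the spread within the 4-day and 6 h groups alone, which the replicates numbered 4 widen here. With only the arrays of these groups in the limma fit, 0 genes were called. Fmod, fibromodulin of the collagen matrix, measured 10.19, 10.53, 10.48 and 9.01 at 4 days, against 8.54, 8.78, 8.75 and 9.66 at 6 h. Its rise was 1.12 (SE 0.26, adjusted p = 0.0235), with the same overlap. Slc13a4, a sodium-coupled sulfate transporter, measured 9.72, 9.79, 10.15 and 8.66 at 4 days, against 8.24, 8.28, 8.36 and 9.18 at 6 h, a rise of 1.06 (SE 0.22, adjusted p = 0.0147). Osr1, a transcription factor of embryonic mesenchyme, rose by 1.00 and Slc6a20a, an imino acid transporter, by 0.87. Both again had 4-day replicate 4 below 6 h replicate 4.

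The promoters of the 3 genes with the largest rises are printed because these genes moved together over the 8 arrays. Each stretch runs from 250 bases before to 50 bases after the gene's start, on the gene's strand, from RefSeq on build GRCm38.p6. Kcnj13 lies at chr1:87394680-87394979 (minus strand), Fmod at chr1:134037004-134037303 (plus strand) and Slc13a4 at chr6:35308077-35308376 (minus strand). Capitals mark the letters TAAACA, the core that forkhead factors such as Foxc2 bind, searched on both strands as TAAACA and TGTTTA.
Kcnj13: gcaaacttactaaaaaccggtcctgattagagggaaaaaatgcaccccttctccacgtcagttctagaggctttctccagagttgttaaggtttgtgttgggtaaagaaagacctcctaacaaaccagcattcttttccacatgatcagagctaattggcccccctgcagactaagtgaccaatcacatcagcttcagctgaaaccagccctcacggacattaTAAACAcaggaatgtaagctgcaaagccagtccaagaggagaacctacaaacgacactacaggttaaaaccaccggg
Fmod: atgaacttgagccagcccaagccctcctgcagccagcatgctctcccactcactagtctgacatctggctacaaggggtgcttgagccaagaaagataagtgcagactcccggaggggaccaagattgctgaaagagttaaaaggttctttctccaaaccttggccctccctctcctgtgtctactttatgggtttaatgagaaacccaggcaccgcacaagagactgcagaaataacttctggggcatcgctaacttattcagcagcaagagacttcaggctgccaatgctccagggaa
Slc13a4: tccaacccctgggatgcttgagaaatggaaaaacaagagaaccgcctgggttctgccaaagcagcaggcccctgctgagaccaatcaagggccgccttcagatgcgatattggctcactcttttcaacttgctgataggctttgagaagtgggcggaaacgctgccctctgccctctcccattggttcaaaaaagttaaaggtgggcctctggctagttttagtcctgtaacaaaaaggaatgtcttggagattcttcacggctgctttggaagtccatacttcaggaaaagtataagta
Of the promoters printed, only that of Kcnj13 holds these letters. They stand in 13.4% of the 32851 promoters of the same length. Among the 19 fibroblast markers that have an entry they stand in 3 (Col3a1, Col6a1 and Igfbp2), a share close to that. Regulation of these genes by Foxc2 was not tested. Foxc2, a forkhead factor of meningeal and vascular mesenchyme, measured 8.09, 8.10, 8.03 and 7.56 at 4 days, against 6.90, 7.26, 7.42 and 7.65 at 6 h. It rose by 0.64 (SE 0.14, adjusted p = 0.0150), with replicate 4 at 4 days just below replicate 4 at 6 h, while its relative Foxc1 differed by 0.08 (adjusted p = 0.678).

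Secreted and matrix products moved in the same arrays. Igf2, a growth factor of the meninges, measured 10.54, 10.73, 10.77 and 9.62 at 4 days, against 9.31, 9.57, 9.42 and 10.26 at 6 h, a rise of 0.78 (SE 0.20, adjusted p = 0.0326). Aldh1a2, which makes retinoic acid, rose by 0.79 (SE 0.21, adjusted p = 0.0387). It was the only called gene of 16 in a retinoid list. Igfbp2, a binding protein of insulin-like growth factors, measured 8.26, 8.53, 8.35 and 7.84 at 4 days, against 7.58, 7.71, 7.66 and 7.96 at 6 h, and rose by 0.52. Ptgds, prostaglandin D synthase of the leptomeninges, had 13.46, 13.50, 13.59 and 12.86 at 4 days, against 12.76, 12.74, 12.79 and 13.26 at 6 h. Its rise of 0.46 (SE 0.13, adjusted p = 0.0435) came from the same 3 arrays against 3.

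Other large rises were Itih2 (0.84), whose product binds hyaluronan, Serpind1 (0.83), the heparin cofactor that inhibits thrombin, and Mpzl2 (0.76), an adhesion protein. Among the 15 genes of largest rise, the kallikrein gene Klk1b11, which has close paralogues, was the only one whose groups did not overlap: it measured 6.39, 6.38, 6.89 and 6.70 at 4 days, against 5.69, 6.21, 5.62 and 5.87 at 6 h, a rise of 0.74 (SE 0.16, adjusted p = 0.0177). Slc13a3, a dicarboxylate transporter, rose by 0.70, and the organic anion transporters Slc22a8 and Slc22a6 rose by 0.61 and 0.59. Bmp6 and Bmp7, ligands of the bone morphogenetic protein family, rose by 0.51 and 0.45. The matrix genes Fn1, Pcolce, Podn, Fbln1 and Col6a1, of which Fn1 encodes fibronectin, rose by 0.51, 0.45, 0.45, 0.38 and 0.35. Colec12, a scavenger receptor, rose by 0.36. Igfbp2, Fn1, Pcolce, Col6a1, Foxc1, Bmp6, Bmp7, Ptgds, Podn, Fbln1 and Colec12 were picked after their values were seen.

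Among the markers that missed the threshold, Slc6a13, a GABA transporter of the meninges, differed by 0.82 (adjusted p = 0.0529) and Ogn, osteoglycin, by 0.79 (adjusted p = 0.112). Dcn, decorin, differed by 0.60 (adjusted p = 0.155). Fibrillar collagens differed less: Col1a1 by 0.19 (adjusted p = 0.251) and Col3a1 by 0.05 (adjusted p = 0.733).

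**Figure D2:**
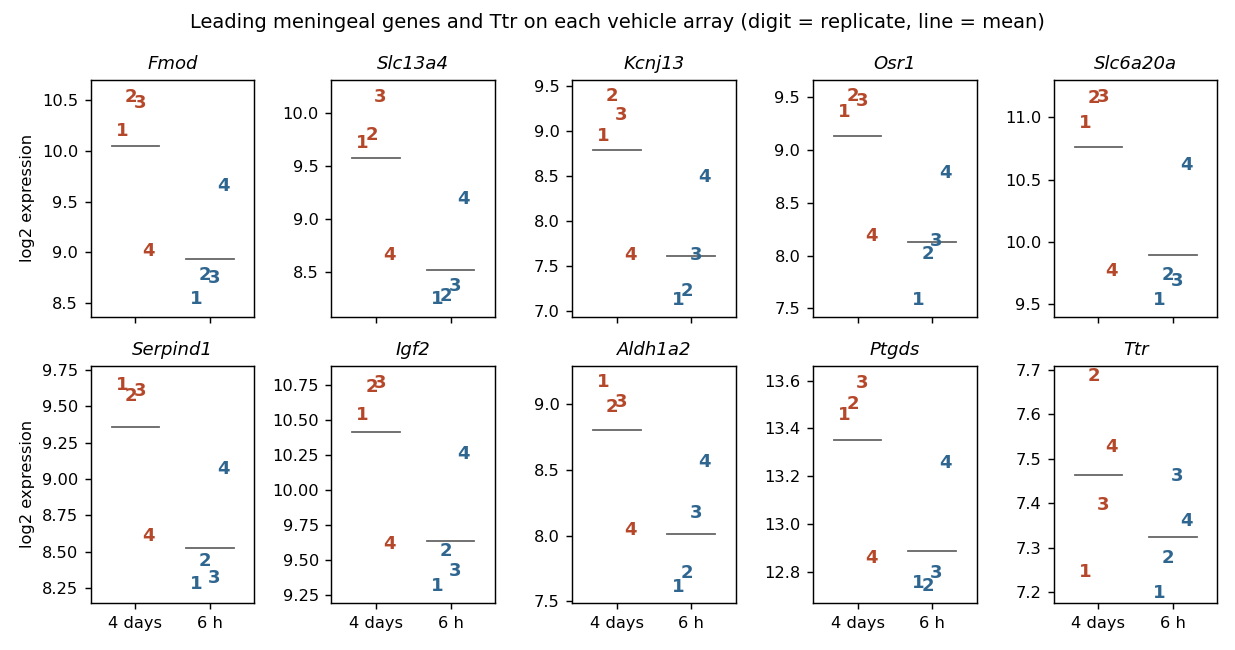
Log2 expression of 9 risen genes and of the choroid plexus gene Ttr on each vehicle array (vertical axes differ); digits are the replicate numbers, lines the means of 4 days and 6 h. In the risen genes replicate 4 at 4 days lies with the 6 h arrays and replicate 4 at 6 h above the other 6 h arrays, a pattern that Ttr does not have.

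The choroid plexus, another ventricular barrier, did not move as a group. Of 17 measured markers, 13 were higher and 4 lower, with 1 called in each direction and a median of 0.06. The risen gene is Kcnj13, and Slc31a1, a copper importer, fell by 0.29 (adjusted p = 0.0340). Ttr, transthyretin, the defining secreted product of the choroid plexus, measured 7.25, 7.69, 7.40 and 7.53 at 4 days, against 7.20, 7.28, 7.46 and 7.36 at 6 h. These ranges overlap, and the difference was 0.14 (adjusted p = 0.719). With the mean of the choroid markers, Kcnj13 included, as a covariate, the median over the fibroblast list was 0.27 and none of it was called.

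Of 18 markers of pericytes and smooth muscle, 17 were higher at 4 days (62.1% of all genes were), with a median of 0.14. Of these 1 passed, Notch3, a receptor of mural cells. The list mean was 8.52, 8.61, 8.62 and 8.45 on the 4-day arrays, against 8.39, 8.39, 8.37 and 8.48 on the 6 h arrays, so replicate 4 at 4 days again lay below replicate 4 at 6 h. Between 0 and 4 members passed when 1 array was left out. Notch3 measured 8.93, 9.04, 9.03 and 9.03 at 4 days, against 8.81, 8.82, 8.51 and 8.86 at 6 h, so the groups did not overlap, and it rose by 0.26 (SE 0.07, adjusted p = 0.0426). Of 43 collagen genes, a family picked after the values were seen, 41 were higher (62.1% of all genes were) and 2 were called, Col6a1 and the basement membrane gene Col4a1 (0.20). The collagen median was 0.13, against -0.08 in celastrol mice, where 10 were higher and 33 lower. The basement membrane genes Lama4 and Nid1 rose by 0.30 each. Angpt2, the angiopoietin of remodelling vessels, measured 7.37, 7.45, 7.40 and 7.49 at 4 days, against 7.03, 7.01, 6.82 and 7.36 at 6 h. All 4-day arrays were higher, and the rise was 0.37 (SE 0.08, adjusted p = 0.0140). Mmp2, a matrix metalloproteinase, rose by 0.38, and Pdgfb, Flt4 and Ephb4, vascular growth factor and receptor genes, by 0.20, 0.22 and 0.20. Apart from Notch3, the genes named in this group were picked after their values were seen. None of 19 markers of brain endothelium was called (12 higher, 7 lower, median 0.03), Vwf differing by 0.27 (adjusted p = 0.0567).

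Vim, the vimentin gene of tanycytes and other mesenchymal or ependymal cells, measured 12.06, 12.04, 12.04 and 11.90 at 4 days, against 11.68, 11.76, 11.74 and 11.82 at 6 h. The groups did not overlap, and Vim rose by 0.26 (SE 0.05, adjusted p = 0.0112). It was the only one of 13 tanycyte markers to pass, and vimentin is made by fibroblasts too. Of the 13, 11 were higher (62.1% of all genes were), with a median of 0.05. No ependymal marker passed (7 of 14 higher, median 0.00). In astrocytes, Gjb6, a gap junction connexin gene, fell by 0.20 (adjusted p = 0.0354), the only call among 20 markers with 10 higher and 10 lower.

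Immune genes gave single calls. Of 15 blood leukocyte markers, Ccr2, a chemokine receptor of monocytes, passed, at a low level of 5.38, 5.42, 5.50 and 5.28 at 4 days, against 5.18, 5.07, 5.08 and 5.28 at 6 h; it rose by 0.24 (adjusted p = 0.0426). Ccl4, a chemokine, rose by 0.28 and Sod2, the mitochondrial superoxide dismutase, fell by 0.17 among 25 targets of NF-kB, and Serpina3n, an acute-phase serpin, fell by 0.23 among 23 acute-phase and STAT3 targets. Cd209a and Xcr1, receptors of dendritic cells, rose by 0.29 and 0.34, and Cybb, the phagocyte oxidase, by 0.35, all 3 picked after their values were seen. Their levels were low, with 6 h means of 6.78, 6.38 and 6.61. In celastrol mice they differed by -0.16, -0.14 and -0.0015. None of 19 microglial genes passed, with 7 higher, 12 lower and a median of -0.04. None of 10 perivascular macrophage markers and none of 29 interferon and antigen presentation genes passed. Of them, 9 and 22 were higher (62.1% of all genes were).

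A pair of microRNA genes of the imprinted Dlk1-Dio3 cluster rose. Their mature sequences are shown beside those of 2 neighbours to place them in that cluster on chromosome 12 of GRCm38.p6. They are from RefSeq, run 5′ to 3′, and have the seed (bases 2 to 8) in capitals; the probe sets measure the gene's transcript, not the mature arms.
mmu-miR-431-5p: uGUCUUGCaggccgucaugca
mmu-miR-431-3p: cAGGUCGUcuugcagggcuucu
mmu-miR-127-5p: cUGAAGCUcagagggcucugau
mmu-miR-127-3p: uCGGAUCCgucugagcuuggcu
mmu-miR-434-5p: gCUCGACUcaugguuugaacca
mmu-miR-434-3p: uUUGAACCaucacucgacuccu
mmu-miR-136-5p: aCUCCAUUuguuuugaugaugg
mmu-miR-136-3p: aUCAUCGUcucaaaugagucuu
No seed is shared among the 8. Mir431 measured 9.01, 8.84, 8.96 and 9.03 at 4 days, against 8.62, 8.63, 8.32 and 8.55 at 6 h, which do not overlap, and it rose by 0.43 (SE 0.07, adjusted p = 0.00497). Mir127 measured 9.11, 8.60, 8.80 and 8.92 at 4 days, against 8.30, 8.61, 8.52 and 8.58 at 6 h, and rose by 0.36 (SE 0.10, adjusted p = 0.0442) with 1 array on each side overlapping. Mir434 and Mir136 differed by 0.12 and 0.07 (adjusted p = 0.577 and 0.648). In celastrol mice the 4 genes differed by 0.31, 0.24, 0.28 and 0.32 in the same order, none past the threshold. Dlk1, the gene that gives the cluster its name, rose as well, by 0.23 (SE 0.06, adjusted p = 0.0394 in limma). In celastrol mice Dlk1 differed by 0.06. Mir127, Mir434, Mir136 and Dlk1 were picked after their values were seen.

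The largest falls were smaller than the largest rises, and the genes of smallest p fell. Hacd2, a dehydratase of very-long-chain fatty acid synthesis, had the smallest p of all genes. It measured 11.88, 11.91, 11.87 and 11.89 at 4 days, against 12.25, 12.19, 12.34 and 12.25 at 6 h. The groups lie far apart for their spread, and the fall was -0.37 (SE 0.04, adjusted p = 0.000123). Naa20, the catalytic subunit of an N-terminal acetyltransferase, measured 10.26, 10.25, 10.19 and 10.35 at 4 days, against 10.94, 10.83, 11.25 and 10.80 at 6 h. All 4-day arrays were lower, by -0.69 on average (SE 0.08, adjusted p = 0.000266). Ugcg, which makes glucosylceramide, measured 10.38, 10.22, 10.34 and 10.30 at 4 days, against 10.75, 10.63, 10.73 and 10.68 at 6 h, and fell by 0.39 without overlap (SE 0.05, adjusted p = 0.000334).

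Prdx2, a peroxidase of hydrogen peroxide, measured 12.38, 12.35, 12.28 and 12.32 at 4 days, against 12.70, 12.70, 12.71 and 12.60 at 6 h, and fell by 0.35 without overlap (SE 0.04, adjusted p = 0.000469). Septin7, a filament-forming GTPase, fell by 0.39 (SE 0.05, adjusted p = 0.000937). These 5 genes and Chordc1 were called in each fit that left out 1 of the 8 arrays and with the array SD as a covariate. In all, 29 risen and 81 fallen genes were called in each fit that left out 1 array. Among the rises of smallest p, Slc12a3, the thiazide-sensitive sodium chloride cotransporter, measured 7.64, 7.83, 7.69 and 7.76 at 4 days, against 7.21, 7.46, 7.40 and 7.26 at 6 h, a rise of 0.40 (SE 0.06, adjusted p = 0.00398). Tmprss11e, a membrane serine protease, rose by 0.37 and Edem2, a factor of endoplasmic reticulum degradation, by 0.24, all 3 without overlap. Vwa5b1, also without overlap, rose by 0.27 (adjusted p = 0.00560).

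The largest falls in size were in genes of diverse function. Snord33, a small nucleolar RNA, fell by 0.75 (SE 0.21, adjusted p = 0.0432), with 6.98, 8.08, 7.95 and 7.99 at 4 days, against 8.76, 8.29, 8.74 and 8.23 at 6 h. Replicate 1 at 4 days was the lowest by far. Anp32-ps, annotated as a pseudogene, fell by 0.70 and AB010352 by 0.67. The RIKEN gene 6720489N17Rik fell by 0.48 and Scrg1, a small secreted protein, by 0.45. Cd63, a tetraspanin of late endosomes, fell by 0.53, Actr6, an actin-related protein of chromatin remodelling, by 0.49, and Senp8, a protease of the NEDD8 modifier, by 0.47. Pigp, of glycolipid anchor synthesis, fell by 0.47, Rrs1, a ribosome assembly factor, by 0.47, and Chac2, an enzyme of glutathione breakdown, by 0.44. The protocadherin Pcdhb9 fell by 0.53. Zfp931 and Zfp442 fell by 0.66 and 0.60; they belong to families of near-identical zinc finger genes whose probe sets may share signal.

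Lipid enzymes beside Hacd2 and Ugcg also fell: Hacd1, its paralogue, by 0.26, Chpt1, of phosphatidylcholine synthesis, by 0.23, and Acer3, a ceramidase, by 0.29, all picked after their values were seen. In a list of 30 genes of cholesterol and fatty acid synthesis, 18 were lower, and Msmo1 and Insig1 were called. Msmo1, a sterol oxidase, measured 10.80, 10.98, 10.75 and 10.86 at 4 days, against 11.07, 11.11, 11.41 and 11.04 at 6 h, and fell by 0.31 (adjusted p = 0.0277). Insig1, which retains sterol sensors in the endoplasmic reticulum, fell by 0.24 (adjusted p = 0.0415).

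Of 23 heat shock chaperone genes, 20 were lower at 4 days (37.9% of all genes were), with a median of -0.08. Chordc1, Hspd1 and Dnaja1 were called. Chordc1, a partner of Hsp90, measured 9.81, 9.76, 9.72 and 9.84 at 4 days, against 10.22, 10.19, 10.16 and 10.13 at 6 h, and fell by 0.39 without overlap (SE 0.05, adjusted p = 0.000937). The mitochondrial chaperonin gene Hspd1 fell by 0.24 and the Hsp70 partner Dnaja1 by 0.23. Inducible Hspa1a differed by -0.09 (adjusted p = 0.408). In the endoplasmic reticulum list, Pdia3 and Dnajb9, a disulfide isomerase and a cochaperone, fell by 0.28 and 0.20, and 16 of 22 genes were lower.

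Large machines of the cell were lower as lists, with few called members. Of 73 genes of the respiratory chain and ATP synthase, 61 were lower (37.9% of all genes were), with a median of -0.12, and Uqcrb and Ndufa9 were called. Differences depended on level: in the highest tercile of genes by level the median was -0.01, and 268 of 6235 were called lower. Uqcrb, of complex III, measured 12.78, 12.65, 12.60 and 12.66 at 4 days, against 12.90, 12.94, 13.48 and 12.83 at 6 h, and fell by 0.36 (SE 0.09, adjusted p = 0.0335). Replicate 3 at 6 h was the highest by a wide margin. Ndufa9, of complex I, fell by 0.26 (adjusted p = 0.0144). The list mean was 11.15 to 11.21 at 4 days, against 11.24, 11.22, 11.60 and 11.20 at 6 h. Without replicate 3 at 6 h the median was -0.04, and 1 member was called.

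Of 33 proteasome genes, 26 were lower with a median of -0.09, and Psma3, Psmd14 and Psmd5 fell by 0.35, 0.28 and 0.18. Without replicate 3 at 6 h the median was -0.02 and none was called. Of 62 cytosolic ribosomal proteins, 46 were lower with a median of -0.06, which was -0.01 without that array. Rps10 fell by 0.18, Rpl29 rose by 0.24 (11.62, 11.52, 11.49 and 11.54 at 4 days, against 11.29, 11.38, 11.20 and 11.35 at 6 h), and Rpl32l, a near copy of Rpl32, fell by 0.19. Among 77 mitochondrial ribosomal proteins, 58 were lower with a median of -0.07 (-0.03 without that array), and Mrpl50 and Mrps17 fell by 0.29 and 0.27. The translation factors Eif5a, Eif4e and Eif4a2, picked after their values were seen, fell by 0.38, 0.31 and 0.29.

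**Figure D3:**
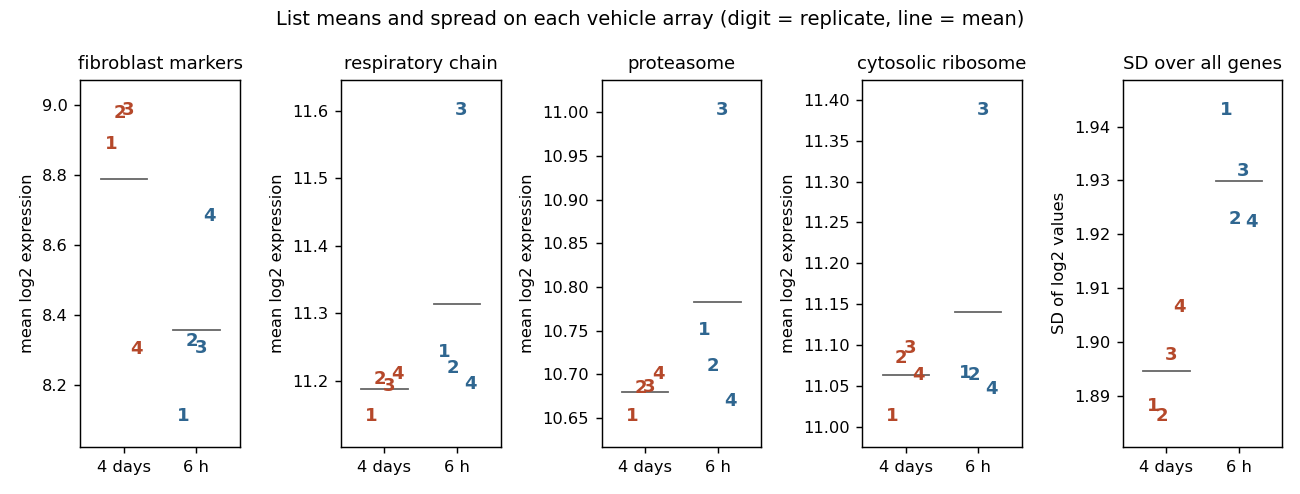
Mean log2 expression of 4 lists and the SD of log2 values over all genes on each vehicle array (vertical axes differ); digits are the replicate numbers, lines the means of 4 days and 6 h. Replicate 3 at 6 h stands above all others in the respiratory chain (11.60), the proteasome and the ribosome, and the SD separates the groups without overlap.

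Further families were looked up after the falls had been seen, so their counts are descriptions, to be read beside the 2.00% of all genes that fell and the 1.91% that rose. Of 32 genes of E2 ubiquitin-conjugating enzymes, 7 fell and none rose. Ube2n, an enzyme of ubiquitin chains in signalling, measured 10.81, 10.39, 10.52 and 10.80 at 4 days, against 11.04, 10.98, 11.29 and 10.92 at 6 h, a fall of 0.43 (adjusted p = 0.0158). Ube2d2a and Ube2a fell by 0.37 and 0.32; Ube2d2a has close paralogues. Of 63 Rab and Rap GTPases, 7 fell and none rose: Rap1a, of cell adhesion, by 0.37, Rab2a, of transport from the endoplasmic reticulum, by 0.32, and Rab18, of lipid droplets, by 0.29 were among them. Of 35 subunits of general transcription factors, Taf13 and Gtf2a2 fell by 0.40 each, and Taf9, Taf2 and Taf9b also fell. Among 305 Zfp genes, 22 fell and Zfp646 rose by 0.25, although 144 of them were higher and the median was -0.01. Of 41 small nucleolar RNAs, 34 were lower with a median of -0.17, and Snord33 and Snord42b were called. Their mean was 7.68, 7.90, 7.89 and 8.00 at 4 days, against 7.97, 7.96, 8.44 and 7.90 at 6 h. Without replicate 3 at 6 h, again the highest, the median was -0.06 and none was called.

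General neuronal markers gave 3 calls of 20 (15%), all lower, against 2.00% of all genes and 268 of the 6235 genes in the highest tercile by level. Their list means were high, 11.82 to 11.92 at 4 days and 11.84 to 11.95 at 6 h. The median difference was -0.01. In this list 12 were lower and 8 higher, and Elavl4, an RNA-binding protein of neurons, Gap43, of growth cones, and Nefl, of neurofilaments, fell by 0.30, 0.22 and 0.15. Elavl4 measured 9.59, 9.67, 9.75 and 9.83 at 4 days, against 10.07, 9.94, 10.07 and 9.96 at 6 h, with no overlap (adjusted p = 0.00585). Among 43 receptor subunits of GABA, glycine and glutamate, Gabrg1 and Gabrb2 of the GABA type A receptor fell by 0.32 and 0.22, and Grik5 of kainate receptors rose by 0.22. Gabrg1 measured 11.39, 11.23, 11.27 and 11.26 at 4 days, against 11.67, 11.49, 11.71 and 11.57 at 6 h (adjusted p = 0.00639). Of 81 potassium channel subunits, 63 were higher (62.1% of all genes were), with a median of 0.05 against 0.04 over all genes. Those called were 4.94% of the list, against 1.91% of all genes. Kcnk9, Kcns1 and Kcnk4 rose by 0.31, 0.22 and 0.19 beside Kcnj13. The synaptic vesicle list had 1 call of 22, Sypl2 (0.19).

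The peptide genes Oxt and Adcyap1 and the receptor gene Hcrtr2 were called. Oxt, oxytocin of the paraventricular and supraoptic nuclei, measured 12.48, 12.45, 12.54 and 12.43 at 4 days, against 12.26, 12.08, 12.07 and 12.40 at 6 h. All 4-day arrays were higher, and the rise was 0.27 (SE 0.08, adjusted p = 0.0485). Adcyap1, the neuropeptide PACAP, measured 10.92, 11.05, 10.94 and 11.02 at 4 days, against 11.18, 11.28, 11.35 and 11.21 at 6 h, and fell by 0.27 without overlap (SE 0.05, adjusted p = 0.00878). Hcrtr2, an orexin receptor, measured 8.26, 8.48, 8.21 and 8.47 at 4 days, against 8.59, 8.64, 8.78 and 8.50 at 6 h, and fell by 0.27 (SE 0.07, adjusted p = 0.0442). These were 2 of 28 neuroendocrine peptides and 1 of 23 feeding peptides and receptors, a share near the 3.91% of all genes called.

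The feeding peptide genes Npy, Pomc, Cartpt, Pmch and Hcrt did not pass, and Agrp was not among the genes tested. Npy measured 11.59, 11.56, 11.66 and 11.54 at 4 days, against 11.49, 11.35, 11.95 and 11.37 at 6 h, and differed by 0.05 (adjusted p = 0.802). Cartpt differed by 0.10 (adjusted p = 0.411), Pmch by -0.16 (adjusted p = 0.275) and Hcrt by -0.05 (adjusted p = 0.725). Pomc, which pituitary cells make as well, measured 8.61, 9.85, 9.06 and 8.06 at 4 days, against 8.06, 10.84, 8.32 and 10.43 at 6 h, and was highest on the arrays with high Prl. Avp, Crh, Trh and Sst differed by -0.10, -0.24, -0.05 and -0.00, none past the threshold. Lepr differed by -0.14 (adjusted p = 0.333), and Socs3, its feedback inhibitor, by 0.14 (adjusted p = 0.305).

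No gene of the glucocorticoid, immediate early and clock lists was called. None of 27 glucocorticoid-responsive genes passed (15 higher, 12 lower), and Fkbp5 and Sgk1 differed by 0.05 and -0.15. None of 28 immediate early genes passed (14 higher, 14 lower), and Fos measured 7.36, 7.46, 7.33 and 7.40 at 4 days, against 7.41, 7.09, 7.29 and 7.46 at 6 h. Egr1, another such gene, differed by -0.15 (adjusted p = 0.397), and the acute-phase gene Lcn2 by -0.17 (adjusted p = 0.667). Of 21 clock genes, 16 were higher (62.1% of all genes were) and none passed. Per1, Per2, Dbp and Nr1d1 differed by 0.09, 0.13, 0.05 and 0.13, and Per3 by 0.16 (adjusted p = 0.0530). Lists of oligodendrocytes (22 genes), their precursors (11), the tricarboxylic acid cycle (19), glycolysis (14), the cytosolic chaperonin (8), hypothalamic transcription factors (25), thalamus (15), cortex and hippocampus (9) and red blood cells (5) had no called gene. Among 10 striatal genes Rgs9 rose by 0.15, and among 18 hypoxia genes Higd1a fell by 0.43. Slc7a11, a cystine importer, and Tkt, of the pentose phosphate pathway, rose by 0.16 and 0.21 among 19 NRF2 targets. Median differences over all lists are in the plot of gene lists.

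**Figure D4:**
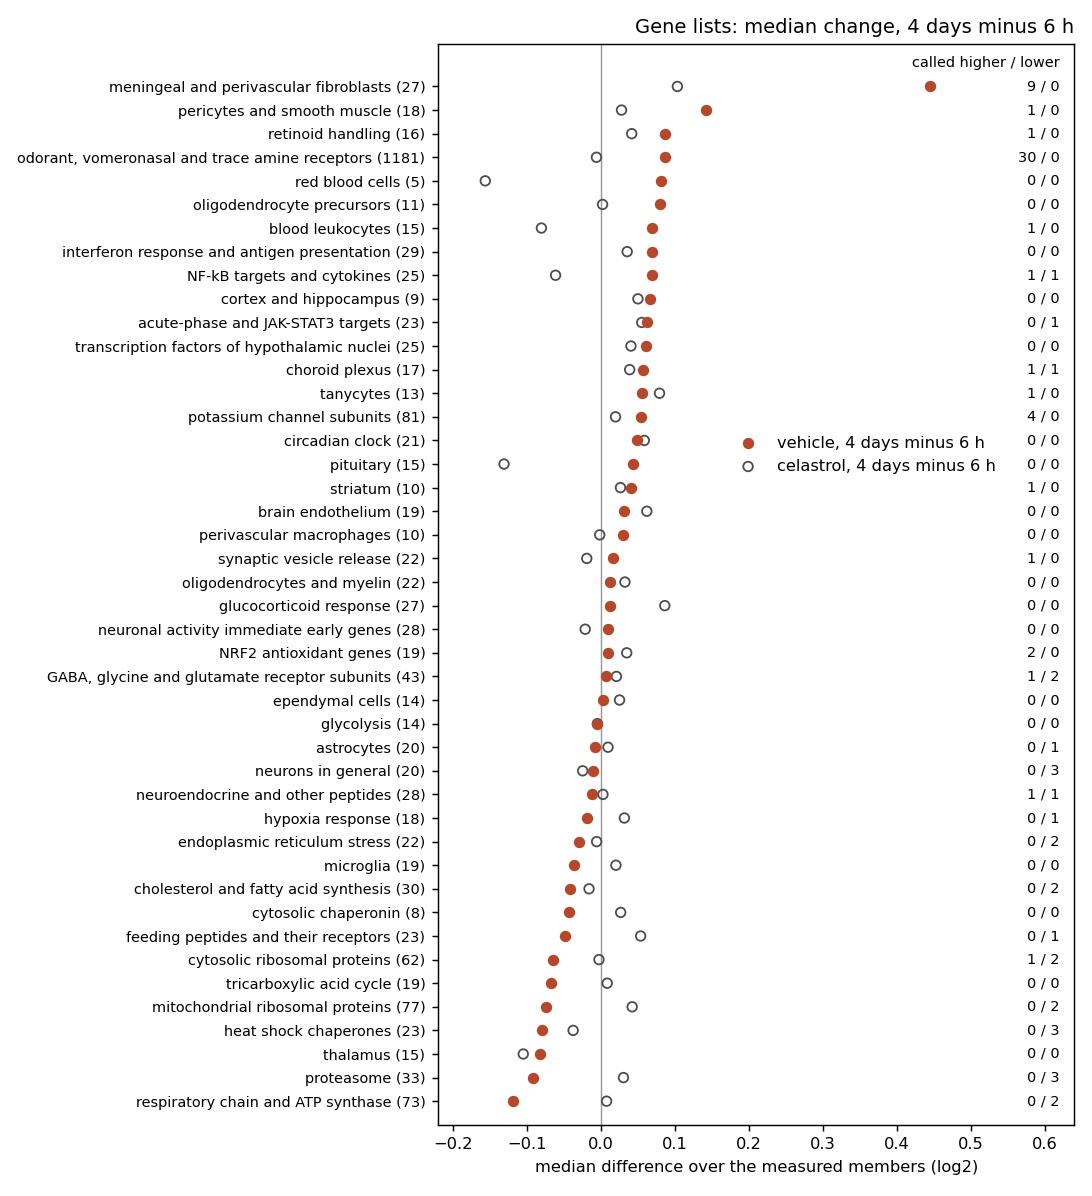
Median log2 difference, 4 days minus 6 h, over the measured members of each of 44 gene lists (number in parentheses) in vehicle mice (filled) and celastrol mice (open), with the numbers of members called higher and lower in vehicle mice at the right. The fibroblast list stands apart at 0.45 in vehicle mice, against 0.10 in celastrol mice.

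Calls were uneven over the range of levels. In the lowest tercile of genes by level 147 were higher and 11 lower, with a median difference of 0.08, and in the highest tercile 78 were higher and 268 lower, with a median of -0.01. Odorant, vomeronasal and trace amine receptor genes, which belong to the nose and are low in brain, show the first of these. Of 1181, 949 were higher (62.1% of all genes were), 30 rose and none fell, and their mean was 5.76 to 5.77 at 4 days, against 5.65 to 5.70 at 6 h. Olfr228 measured 4.66, 4.79, 4.67 and 4.93 at 4 days, against 4.36, 4.41, 4.49 and 4.31 at 6 h, a rise of 0.37 without overlap (adjusted p = 0.00956). With the array SD, which is computed from these genes too, as a covariate, none of the 1181 was called and their median was 0.02.

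The celastrol arrays, which share no sample with the vehicle arrays, gave the same 2 times in other animals. There, 8 genes were higher (0.0428%) and 6 lower (0.0321%) at 4 days, 14 in all (0.0749%). None was called with only the celastrol arrays in the fit, in the replicate block, under array weights, or without replicate 2 at 6 h or replicate 1 or 3 at 4 days. Vim, Ctdsp1, Fmn1 and Arf1 were called in both, each in the same direction. Ctdsp1, a small phosphatase, measured 10.10, 10.39, 10.34 and 10.34 at 4 days in vehicle mice, against 9.97, 9.93, 9.88 and 10.01 at 6 h, and rose by 0.34 in vehicle mice and 0.35 in celastrol mice. Fmn1, a formin of actin assembly, rose by 0.17 and 0.25, and Vim by 0.26 and 0.30. Arf1, a GTPase of Golgi coats, measured 13.27, 13.25, 13.36 and 13.21 at 4 days in vehicle mice, against 13.53, 13.57, 13.47 and 13.65 at 6 h, and fell by 0.28 and 0.35.

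Of the 357 genes that rose in vehicle mice, 228 (63.9%) were also higher at 4 days in celastrol mice, where 55.9% of all genes were higher. Of the 375 that fell, 295 (78.7%) were also lower in celastrol mice, although most genes were higher there. Over all genes 54.1% had the same sign in both, a share that mixes the 2 directions. The median celastrol differences of the 2 sets were 0.05 and -0.06. In the fibroblast list the celastrol median was 0.10, with 19 of 27 higher (55.9% of all genes were) and none called, and Kcnj13, Fmod, Slc13a4 and Osr1 differed by 0.49, 0.39, 0.41 and 0.22 without passing. The respiratory chain, the proteasome and the mitochondrial ribosome had celastrol medians of 0.01, 0.03 and 0.04, and the smell receptors -0.01. Array SDs in celastrol mice were 1.91 ± 0.0283 at 4 days and 1.89 ± 0.0249 at 6 h. The means differed the other way, but the arrays of the 2 times overlapped and this difference was not tested.

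**Figure D5:**
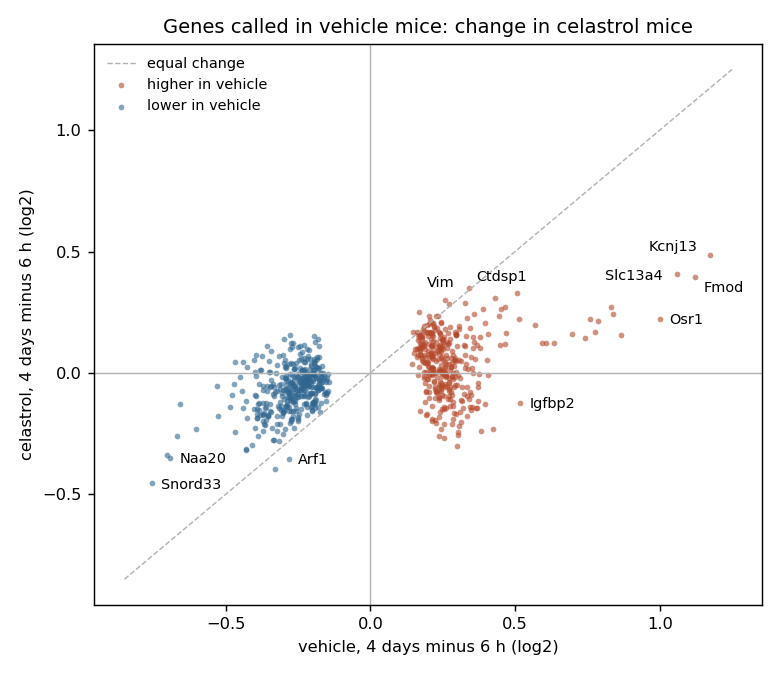
Difference between 4 days and 6 h in celastrol mice (vertical axis, log2) against that in vehicle mice (horizontal axis, log2) for the 732 genes called in vehicle mice; the dashed line marks equal changes. The median celastrol difference is 0.05 for risen and -0.06 for fallen genes, and Kcnj13 lies at 0.49 against 1.17.

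The test of the difference between the 2 changes called 3 genes (0.0160%), each with a vehicle change above the celastrol change: Slc12a3, Grk1 and Tmprss13, at an adjusted p of 0.0480. No gene was called with only the compared arrays, a trended and robust variance prior, either filter on level, quantile normalization, the replicate block, array weights, every probe set or any of the 3 planned covariates. Slc12a3 rose by 0.40 in vehicle mice and differed by -0.13 in celastrol mice. Grk1, the rhodopsin kinase, differed by 0.17 and -0.27, and Tmprss13, a membrane serine protease, by 0.22 and -0.35, none of these 4 past the threshold. For Kcnj13 the difference of changes was 0.68 (SE 0.42, adjusted p = 0.444) and for Igfbp2 0.64 (SE 0.15, adjusted p = 0.0813).

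At 1 day, the intermediate time, vehicle arrays were set against the same 6 h arrays, which the 2 comparisons share. The limma test called 0 genes, with 751 higher (4.02%) and 1249 lower (6.68%) at an unadjusted p below 0.05. Kcnj13, Fmod and Slc13a4 differed by -0.24, -0.15 and -0.16 at 1 day and rose by 1.17, 1.12 and 1.06 at 4 days. Naa20 differed by -0.41 at 1 day and fell by 0.69 at 4 days, while Hacd2 and Ugcg differed by -0.11 and -0.03 and fell by 0.37 and 0.39. The fibroblast list had a median of -0.10 at 1 day and 0.45 at 4 days.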

How the data were processed

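Hypothalamic RNA of 23 male db/db mice was hybridised to Affymetrix whole-transcript arrays, 1 array per sample. The authors deposited log2 values of each probe set; RMA is the tool that the submitters' processing notes name, with no version, and filters are not stated. The values were taken without further change. Of 23492 probe sets, 20228 named 1 gene in the annotation table, 1399 named several and 1865 none; symbols were updated by gene identifier for 20182. For the 809 genes with more than 1 probe set, the one with the highest mean was taken, which left 18704 genes, with no filter on level. Array medians lay close together; the number of arrays limits the precision.

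Means of the 6 groups were fitted to all 23 arrays with limma 3.58.1 in R 4.3.3 (17 residual and 5.424 prior degrees of freedom, eBayes without trend), with p-values adjusted by Benjamini-Hochberg over every gene tested (threshold 0.05). Contrasts were 4 days minus 6 h in vehicle mice, the same in celastrol mice, the difference between them, and 1 day minus 6 h in vehicle mice. Array SDs were compared by an exact permutation test, 2-sided. The 44 lists are described by counts and medians, without a test.

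The members and lists were chosen with earlier results of these data known. Named are the 15 genes of largest difference and the 5 of smallest p in each direction past the threshold, up to 5 called members of each list (up to 3 of smallest p where none was called; most of these, and 4 further smell receptors, are covered by their list's counts only), a set of feeding, stress, clock, pituitary and choroid plexus genes where measured, and genes stated in the text as picked later. Sequences are from RefSeq tables. The procedure was tested on simulated data. Alternatives were the arrays in the fit, the variance prior, filters on level, 2 normalisations, a replicate block, array weights, every probe set, covariates (array SD, pituitary, choroid plexus), leaving out arrays with Prl above 9 and leaving out each array; a fibroblast covariate was added after the data were seen. Replicates with the same number at 4 days and 6 h did not deviate together (correlations from -0.21 to 0.0761), so the numbers were not taken as pairs.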

Additional observations from a re-analysis of the deposited data

Results flagged for a closer look

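Within a group of 4, an array was set apart when its gap to the nearest other array, divided by the range of the group, exceeded Dixon's 95% critical value for 4 samples. This was so in 51 of 524 groups examined (named genes and list means), and chance gives about 1 in 20. The numbers below are these gap ratios, and the cause was not tested.

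Replicate 1 at 4 days was the lowest for Calb2 (0.838), Cd63 (0.837), Ctdsp1 (0.831), Notch3 (0.867) and Snord33 (0.88). Replicate 2 at 4 days was the highest for Gh (0.864). Replicate 2 at 4 days was the lowest for the list mean of GABA, glycine and glutamate receptor subunits (0.96). Replicate 3 at 4 days was the highest for Vwf (0.858) and Zbtb16 (0.832). Replicate 4 at 4 days was the lowest for Aldh1a2 (0.831), Cd24a (0.868), Cga (0.886), Colec12 (0.844), Foxc2 (0.878), Nid1 (0.83), Osr1 (0.888), Podn (0.853), Serpind1 (0.926), Slc6a20a (0.848), Socs3 (0.839), Vim (0.848), the list mean of tanycytes (0.955) and the list mean of meningeal and perivascular fibroblasts (0.86).

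Replicate 1 at 6 h was the lowest for Lhx3 (0.887). Replicate 2 at 6 h was the lowest for Gpr37 (0.876) and Sgk1 (0.856). Replicate 3 at 6 h was the highest for Actr6 (0.839), Eif5a (0.848), Psma3 (0.842), Rab18 (0.898), Rap1a (0.956), Uqcrb (0.839), the list mean of neuroendocrine and other peptides (0.863), the list mean of respiratory chain and ATP synthase (0.883), the list mean of cytosolic ribosomal proteins (0.94), the list mean of mitochondrial ribosomal proteins (0.849) and the list mean of small nucleolar RNAs (0.872). Replicate 3 at 6 h was the lowest for Aldoa (0.952), Arnt2 (0.941), Kcnk9 (0.831), Notch3 (0.852), Per3 (0.907), Stab1 (0.881), Vwa5b1 (0.931) and the list mean of synaptic vesicle release (0.904). Replicate 4 at 6 h was the highest for Foxc1 (0.895), Itih2 (0.902), Ptgds (0.9) and Slc13a4 (0.871). Replicate 4 at 6 h was the lowest for Prdx2 (0.868) and Tekt1 (0.837).

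The vehicle change exceeded the celastrol change past the threshold of the limma test of that difference for Tmprss13 (by 0.574), Slc12a3 (by 0.525) and Grk1 (by 0.432), each at an adjusted p of 0.0480.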

How the results depend on the processing

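The counts of 357 higher and 375 lower genes depended on the arrays and the model. With only the 8 arrays in the limma fit they were 0 and 0 (2073 and 1230 at an unadjusted p below 0.05). They were 174 and 218 with array weights, 5 and 8 with the array SD as a covariate, 3 and 11 with the choroid plexus mean, 586 and 568 with the pituitary hormone mean, and 857 and 656 without the vehicle arrays with Prl above 9. Lower genes numbered 574 with a trended and robust variance prior, 612 when the lowest tercile by level was dropped and 671 without those below the median level. Leaving out 1 array gave 66 (replicate 2 at 4 days) to 691 (replicate 4 at 6 h) higher and 113 (replicate 2 at 4 days) to 532 (replicate 2 at 6 h) lower. Further fits gave 78 and 126 without replicate 3 at 6 h, 80 and 138 without replicate 3 at 4 days, 159 and 231 without replicate 1 at 6 h, and 203 and 237 without replicate 1 at 4 days. Centring each array on its median gave 239 and 556, and a further quantile normalization 239 and 414, against a split of 48.8% higher as reported. With the replicate number as a block the counts were 310 and 374; no array matched its own number best. Covariates chosen after seeing the data gave 3 and 15 (fibroblast marker mean) and 0 and 0 (fibroblast mean and array SD), where Podn changed sign (-0.000234), as did the median of the collagens. The medians of the fibroblast, pericyte, heat shock, respiratory chain, proteasome, ribosomal and smell receptor lists kept their sign in all 22 alternatives, several of them only just. Medians near 0 changed sign more often. The sign was kept in 12 of the 22 for the glucocorticoid list and 13 for the pituitary. It was kept in 15 each for neurons, receptor subunits and immediate early genes, and 16 each for astrocytes and ependymal cells. For Zfp genes it was kept in 18 and for the choroid plexus in 21. The choroid plexus value of -0.29 without genes below the median level is that of Slc31a1 alone, not of a list.

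The celastrol count of 14 was 0 with only its own arrays, with the replicate block and with array weights, 30 with a trended and robust variance prior, 39 and 70 without the lowest tercile and without genes below the median level, 7 after quantile normalization, 5 with the array SD or the choroid mean, 2 with the pituitary mean, and 0 to 26 when 1 array was left out. The 3 genes of the difference of changes were 0 with only those arrays, a trended and robust prior, either filter on level, quantile normalization, the replicate block, array weights, every probe set or any of the 3 planned covariates, 14 without the arrays with Prl above 9, and 0 to 128 when 1 array was left out. The difference in array SD kept its sign in each alternative. The cause of these shifts was not tested beyond the smaller samples and gene sets of the alternatives.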
